A study of Mus musculus with 16 samples.

Results

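The 10 genes described here encode parts of the MHC class I antigen presentation route, followed after stroke in sorted cells labelled as microglia. The class I chains are the heavy chains H2-K1, H2-D1, H2-Q4 and H2-T23 and their shared light chain B2m. The others are the peptide transporter subunits Tap1 and Tap2, the loading chaperone Tapbp, and the immunoproteasome subunits Psmb8 and Psmb9. The genes were chosen by gene symbol, not by any measured value, and all 10 were found among the 13982 genes of the expression table. All 10 also passed the filter on low values that left 10846 genes for testing.

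MHC class I molecules show peptides from the inside of a cell to CD8+ T cells and to natural killer cells. Proteasomes cut proteins into peptides, the transporter Tap1/Tap2 carries the peptides into the endoplasmic reticulum, and tapasin (the product of Tapbp) holds empty class I molecules at the transporter until a peptide of good fit is bound. Interferons raise the whole route in most cells and exchange the catalytic proteasome subunits for the inducible ones encoded by Psmb8, Psmb9 and Psmb10; resting microglia are known for low surface class I and reactive microglia for more of it.

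RNA was sequenced from cells labelled as microglia in 4 groups of 4 libraries each, all from C57BL/6 mice. The groups were MCAO+AS-exos, MCAO+Ctrl-exos, MCAO and Sham, where MCAO is middle cerebral artery occlusion, an experimental stroke, and Sham mice are labelled untreated. Both exosome groups had MCAO and then 150 µg of plasma exosomes through the tail vein, once every 3 days from surgery. The donors of the exosomes were Apoe knockout mice on a western or a normal diet, and 12 weeks of the western diet served as the model of atherosclerosis. AS-exos and Ctrl-exos are codes that the labels leave unexplained. The sources used here do not give a vehicle injection for MCAO or Sham mice, the time of cell isolation after surgery, or the age and sex of the mice. Cortex (infarct cortex, per the labels) was dissociated, stained for CD45 and CD11b and sorted, a gate that can also hold other myeloid cells. Nothing ties a library to a mouse of its own, so p-values measure the spread between these libraries, which may be technical.

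The deposited values were read as FPKM, fragments scaled by transcript length and library size, a scale on which levels of different genes can be set side by side. Counts were not used here, so the depth behind each value is unknown. Totals ran between 758283 and 983648 FPKM, and between 8813 and 10003 genes reached 1 FPKM. The cell label was checked with marker lists. The 10 homeostatic microglia markers, all in the table, summed to 1133 to 1781 FPKM in MCAO+AS-exos, 1173 to 1259 in MCAO+Ctrl-exos, 981 to 1800.1 in MCAO and 20889.5 to 22855 in Sham libraries, so the cells of all 3 MCAO groups carried far less of them. The 10 monocyte markers summed to 6495 to 23993 FPKM in MCAO+AS-exos, 7520.3 to 15580.4 in MCAO+Ctrl-exos, 6076 to 10700.2 in MCAO and 215 to 613 FPKM in Sham libraries. The 7 of 8 border macrophage markers in the table, of which F13a1 is also on the monocyte list, summed to 2909.9 to 5488 FPKM in MCAO+AS-exos, 3652 to 4323 in MCAO+Ctrl-exos, 1808 to 4449 in MCAO and 2.84 to 57.7 FPKM in Sham libraries. The 7 of 10 neutrophil markers in the table summed to 3366 to 7157 FPKM in MCAO+AS-exos, 1723 to 3462 in MCAO+Ctrl-exos, 1625 to 9677 in MCAO and 76.6 to 144 FPKM in Sham libraries. Of these, Ly6g was at 0 in every MCAO and Sham library, and Csf3r averaged 76.2 FPKM in MCAO and 94.4 FPKM in Sham libraries. The means of the others were higher in MCAO than in Sham, among them S100a8 at 3544 FPKM against 2.35 FPKM. Replicate 4 of MCAO+AS-exos stood apart from its group, with monocyte markers at 6495 FPKM against 21451 to 23993 FPKM in the other 3, and replicate 1 of MCAO+Ctrl-exos had the lowest sum of its group. Results for the exosome groups are therefore also given without these libraries where a call depends on them. In every comparison with Sham below, the sum of the homeostatic microglia markers was lower and the other sums were higher than in Sham. Their part in the results for the class I genes was not tested. Fewer cells of a type and less RNA per cell cannot be told apart in such bulk samples.

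B2m was the most abundant of the 10 genes in every group. Its mean placed it at rank 10 of all genes in MCAO+AS-exos, rank 19 in MCAO+Ctrl-exos, rank 14 in MCAO and rank 3 in Sham libraries. H2-D1 and H2-K1 came next, in that order, in all 3 MCAO groups, with ranges that overlapped in MCAO alone, whereas H2-K1 (424 ± 89.1 FPKM, SD, n = 4) stood above H2-D1 (374 ± 31.6 FPKM) in Sham, by less than the spread of H2-K1. Psmb8, H2-T23, Psmb9 and Tapbp followed in changing order, at means of 61.9 to 337 FPKM. Tap1 and Tap2 were 8th and 9th in every group, at means of 5.59 to 21.7 FPKM, and their ranges overlapped in every group except MCAO, where Tap1 was above Tap2. H2-Q4 was last in each, at means of 1.37 to 7.56 FPKM, and overlapped with Tap2 in MCAO and Sham libraries.

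**Figure D1:**
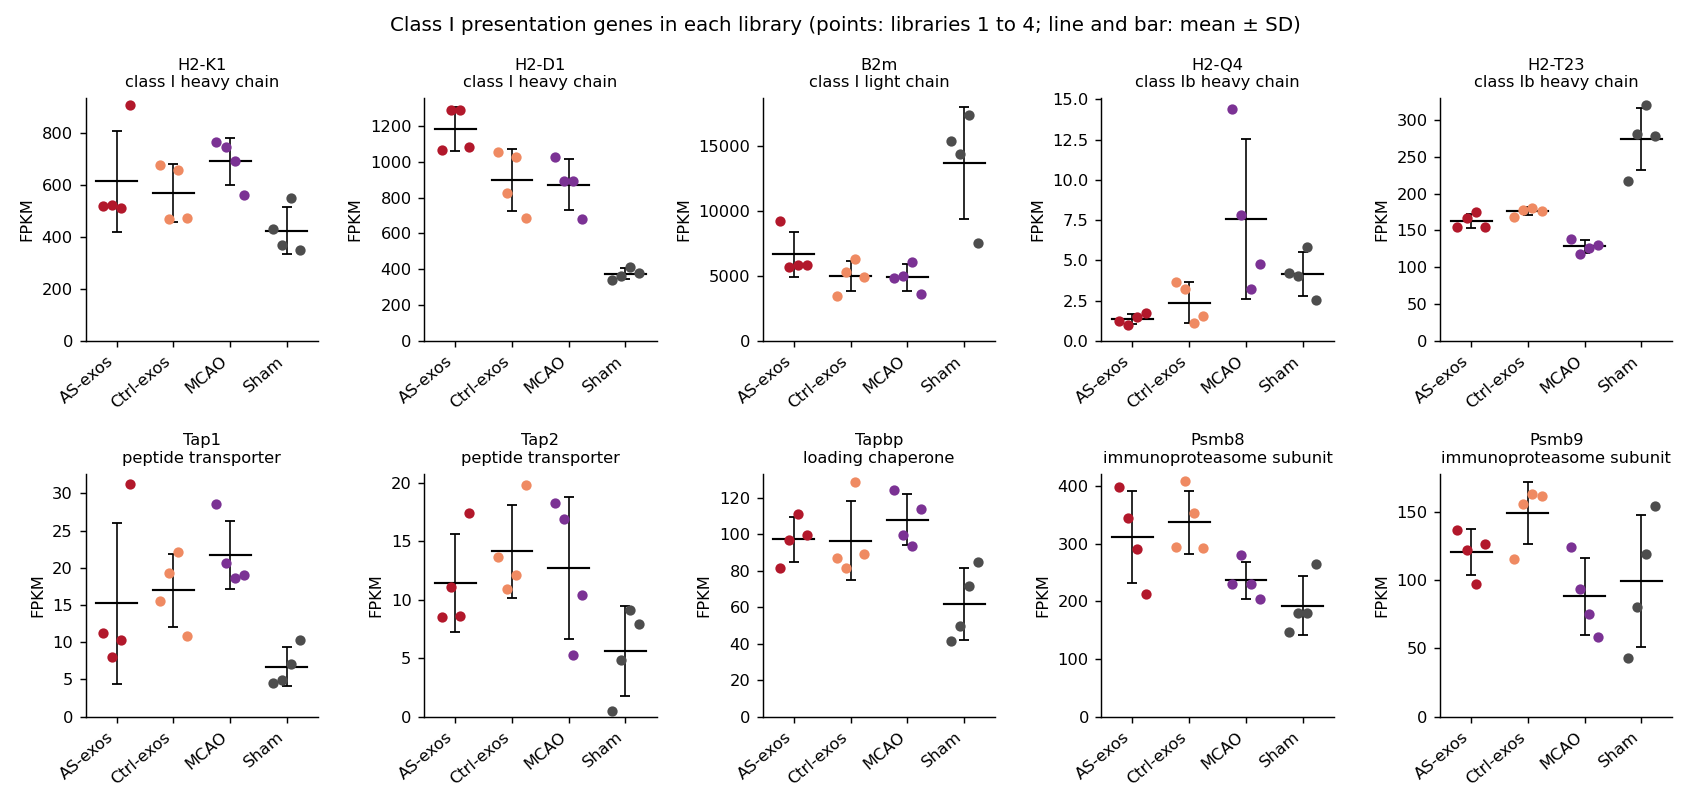
FPKM (linear axis from 0) of the 10 class I presentation genes in each of the 16 libraries, with groups from left to right MCAO+AS-exos, MCAO+Ctrl-exos, MCAO and Sham; points are libraries 1 to 4, lines are means and bars are SD. The 4 Sham libraries lay lowest for H2-D1 and highest for H2-T23, and the Sham mean was the highest for B2m; replicate 4 of MCAO+AS-exos stood alone for H2-K1 (904.87 FPKM) and Tap1 (31.28 FPKM).

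The heavy chain and B2m genes carry related promoters, which are shown because heavy chains and B2m form 1 complex. In MCAO against Sham below, the RNA of H2-K1 and H2-D1 rose and that of B2m and H2-T23 fell. Promoter windows of 9 of the 10 genes, all but Tap2, were available from RefSeq (mouse build GRCm38.p6). This is another build than the GRCm39.p6 of the submitters' processing notes. Of these 9 genes, 8 lie on chromosome 17, in or near the MHC, and B2m lies on chromosome 2. Each line below gives 95 bases upstream of the annotated start, 5′ to 3′ on the strand of the gene, with capitals on the 5 bases at either end of the X2 box to Y box unit. This unit binds the complex through which Nlrc5, the class I transactivator, acts. The stretches are chr17:34000354-34000448 (minus strand) for H2-K1, chr17:35262933-35263027 (plus) for H2-D1, chr2:122147549-122147643 (plus) for B2m, chr17:35379453-35379547 (plus) for H2-Q4 and chr17:36032768-36032862 (minus) for H2-T23.
H2-K1: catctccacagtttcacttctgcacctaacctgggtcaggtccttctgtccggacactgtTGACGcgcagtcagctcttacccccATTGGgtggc
H2-D1: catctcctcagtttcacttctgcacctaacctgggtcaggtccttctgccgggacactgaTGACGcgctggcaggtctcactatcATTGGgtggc
B2m: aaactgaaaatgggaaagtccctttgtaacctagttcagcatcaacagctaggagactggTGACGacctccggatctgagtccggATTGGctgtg
H2-Q4: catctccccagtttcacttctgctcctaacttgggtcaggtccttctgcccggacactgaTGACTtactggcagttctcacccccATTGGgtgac
H2-T23: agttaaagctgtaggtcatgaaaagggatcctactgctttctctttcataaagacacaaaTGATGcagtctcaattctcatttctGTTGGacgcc

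The letters TGACG, any 20 bases, then ATTGG were found on the gene strand in H2-K1, H2-D1 and B2m, against 19 of all 32851 promoter windows (0.0578%; 0.0944% on either strand). With TGA, any 23 bases, then TTGG, which every such match also meets, H2-Q4 and H2-T23 joined them, against 2.11% of all windows (3.82% on either strand). H2-K1, H2-D1 and H2-Q4 further share TTTCNNTTC, the core of an interferon-stimulated response element (7.52% of windows on either strand), and GGGGATT, any 1 base, then CC, a form of the NF-kB letters (0.268%). Neither of these exact spellings was found in the windows of B2m and H2-T23. Other spellings of the 2 elements were not searched, so their absence from these windows cannot be concluded. These letters were spelled with the member sequences in view, and a match is a description, not a bound site. Of 12 class I genes outside the 10 that had a window, H2-M3 was the 1 with the first pattern, and none of 4 class II, 4 constitutive proteasome or 4 further inducible proteasome genes had it.

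**Figure D2:**
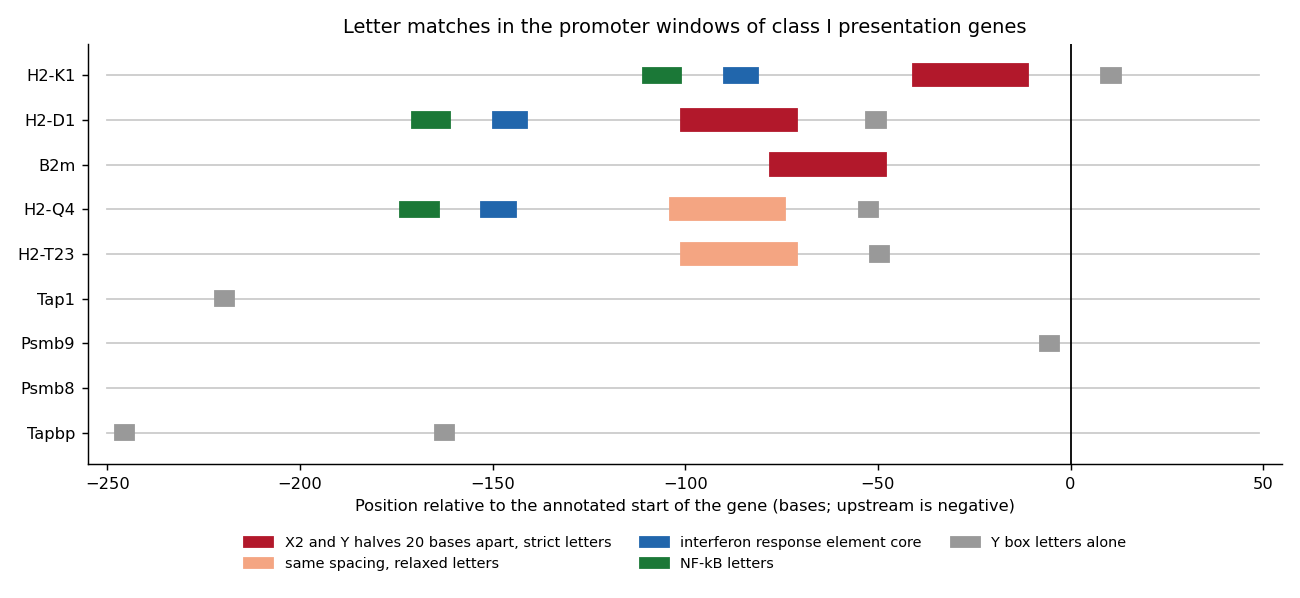
Position of letter matches (x axis, bases from the annotated start, upstream negative) in the promoter windows of 9 class I presentation genes, 1 per line; colours give the pattern, and Y box letters inside a longer match are not drawn. The 5 genes of the class I chains share the paired X2 and Y letters at 1 spacing, and Tap1, Tapbp, Psmb8 and Psmb9 lack them in these windows. Tap2 had no window and was not searched.

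Tap1 and Psmb9 stand head to head, Tap1 on the plus strand from base 34187556 and Psmb9 on the minus strand from base 34187330, with starts 226 bases apart. The 225 bases between the starts, chr17:34187331-34187555 of GRCm38.p6 on the plus strand, serve both genes. They are shown because Tap1 passed the test in MCAO against Sham and Psmb9 did not. Capitals mark a Y box pentamer (CCAAT as read on this strand, ATTGG towards Psmb9), letters that 37.4% of all windows hold on either strand.
Tap1 and Psmb9: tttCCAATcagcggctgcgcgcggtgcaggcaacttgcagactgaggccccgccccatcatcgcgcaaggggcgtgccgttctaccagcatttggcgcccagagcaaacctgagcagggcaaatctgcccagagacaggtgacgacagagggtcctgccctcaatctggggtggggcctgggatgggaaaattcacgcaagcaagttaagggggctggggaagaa

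In MCAO against Sham libraries, the classical heavy chains H2-K1 and H2-D1, the transporter subunit Tap1 and the chaperone gene Tapbp rose. B2m and the nonclassical chain H2-T23 fell. Against the same Sham libraries, H2-K1 did not pass in either exosome group, and Tap1 did not pass in MCAO+AS-exos. Of the 10 genes, 4 were higher (H2-K1, H2-D1, Tap1 and Tapbp) and 2 lower (B2m and H2-T23) in MCAO than in Sham libraries at an adjusted p below 0.05 (limma on log2(FPKM + 1), two-sided, Benjamini-Hochberg over all 10846 tested genes). The background was wide: 39.2% of all tested genes passed, 24.5% higher and 14.8% lower, and the groups did not overlap for 33.8% of genes, against 6 of the 10. The shares of the 10 genes were above those of all genes, a difference that was not tested. The median log2 fold change was 0.66 over the 10 genes and 0.25 over all genes. Quantile normalization moved the median of all genes to -0.03 and the split of calls to 2084 higher and 2164 lower genes, against 2654 and 1600 with the values as deposited.

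H2-D1, a classical heavy chain, read 1028.0, 890.1, 893.62 and 678.12 FPKM in MCAO replicates 1 to 4, against 340.6, 360.81, 414.65 and 380.78 FPKM in Sham replicates. Every MCAO library lay well above every Sham library, a 2.31-fold rise (log2 fold change 1.21 ± 0.19, SE; adjusted p = 3.68e-05, limma). H2-K1, the other classical heavy chain of this strain, read 763.84, 743.63, 691.36 and 562.1 FPKM in MCAO libraries, against 430.13, 367.38, 547.39 and 350.87 FPKM in Sham libraries. Its groups also did not overlap, though only just, between MCAO replicate 4 and Sham replicate 3 (log2 fold change 0.71 ± 0.22, adjusted p = 0.016). Read against the shift of all genes, the rise of H2-K1 was small: with quantile normalization it was 0.28 with an adjusted p of 0.361, while H2-D1 remained higher at 0.81 with an adjusted p of 0.00551.

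B2m, the light chain that every class I molecule needs to fold, read 4851.46, 5021.07, 6096.87 and 3590.78 FPKM in MCAO libraries, against 15406.95, 14407.05, 17416.24 and 7523.32 FPKM in Sham libraries. It fell 2.72-fold (log2 fold change -1.44 ± 0.25, adjusted p = 1.51e-04), and the lowest Sham library, replicate 4, was still above the highest MCAO library. B2m has a GC content at percentile 6.01 of the tested genes, the lowest of the 10, while the other 9 lie at percentiles 63.9 to 94.1. The GC-richest 20% of genes differed between the Sham libraries and the MCAO mean by medians of -1.12 to -0.21 on the log2 scale, most in Sham replicate 1. After removal of length and GC trends from each library, an alternative chosen after seeing the data, B2m was still lower in MCAO (-0.85, adjusted p = 0.00304). That alternative took the median length and GC content over all annotated transcripts of a gene.

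H2-T23, whose product Qa-1 shows leader peptides of other class I chains to the CD94/NKG2 receptors of natural killer and CD8+ T cells, read 138.89, 117.97, 125.69 and 130.43 FPKM in MCAO libraries, against 217.48, 280.32, 319.73 and 278.01 FPKM in Sham libraries. No MCAO library came near the Sham range, and the gene was 2.11-fold lower (log2 fold change -1.08 ± 0.18, adjusted p = 8.42e-05). H2-Q4, a nonclassical chain of the Qa region, averaged 7.56 ± 4.95 FPKM in MCAO and 4.15 ± 1.35 FPKM in Sham libraries (SD, n = 4 each), a difference within the spread (log2 fold change 0.60 ± 0.42, adjusted p = 0.27). Values of the heavy chains are less certain than those of the other genes, since their transcripts resemble each other: of all 50-base stretches, 28.8% of H2-T23, 24.3% of H2-Q4, 14.3% of H2-D1 and 8.79% of H2-K1 also occur in another gene (GENCODE transcripts), against none of B2m. No label or header says how such reads were divided.

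Tap1 read 28.53, 20.66, 18.65 and 19.01 FPKM in MCAO libraries, against 4.46, 4.98, 7.08 and 10.34 FPKM in Sham libraries. This 3.03-fold rise was the largest of the 10 genes, without overlap (log2 fold change 1.60 ± 0.38, adjusted p = 0.00259). Its partner Tap2 read 18.22, 16.93, 5.24 and 10.42 FPKM in MCAO libraries, against 0.46, 4.87, 9.15 and 7.89 FPKM in Sham libraries. MCAO replicate 3 lay inside the Sham range, and Tap2 did not pass (log2 fold change 1.25 ± 0.51, adjusted p = 0.0595). Tapbp read 124.42, 99.45, 93.77 and 113.98 FPKM in MCAO libraries, against 41.47, 49.75, 71.81 and 84.62 FPKM in Sham libraries. It rose 1.79-fold without overlap (log2 fold change 0.84 ± 0.25, adjusted p = 0.0107), but with length and GC trends removed it was at 0.46 with an adjusted p of 0.0998. The length used for Tapbp there was 649 bases, against 2898 bases for its longest protein-coding transcript.

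Neither immunoproteasome subunit passed the test in MCAO against Sham. Psmb8 read 230.86, 281.14, 230.11 and 204.19 FPKM in MCAO libraries, against 147.3, 179.45, 179.58 and 265.04 FPKM in Sham libraries (log2 fold change 0.32 ± 0.23, adjusted p = 0.289). Sham replicate 4 was above 3 of the 4 MCAO libraries. Psmb9 read 124.52, 93.94, 75.6 and 58.62 FPKM in MCAO libraries, against 42.71, 80.27, 119.57 and 154.49 FPKM in Sham libraries (log2 fold change -0.07 ± 0.32, adjusted p = 0.876). The MCAO range lay inside the Sham range. Tap1 and Psmb9, which share the 225 bases printed above, thus stood on either side of the threshold; the difference between their changes was not tested.

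**Figure D3:**
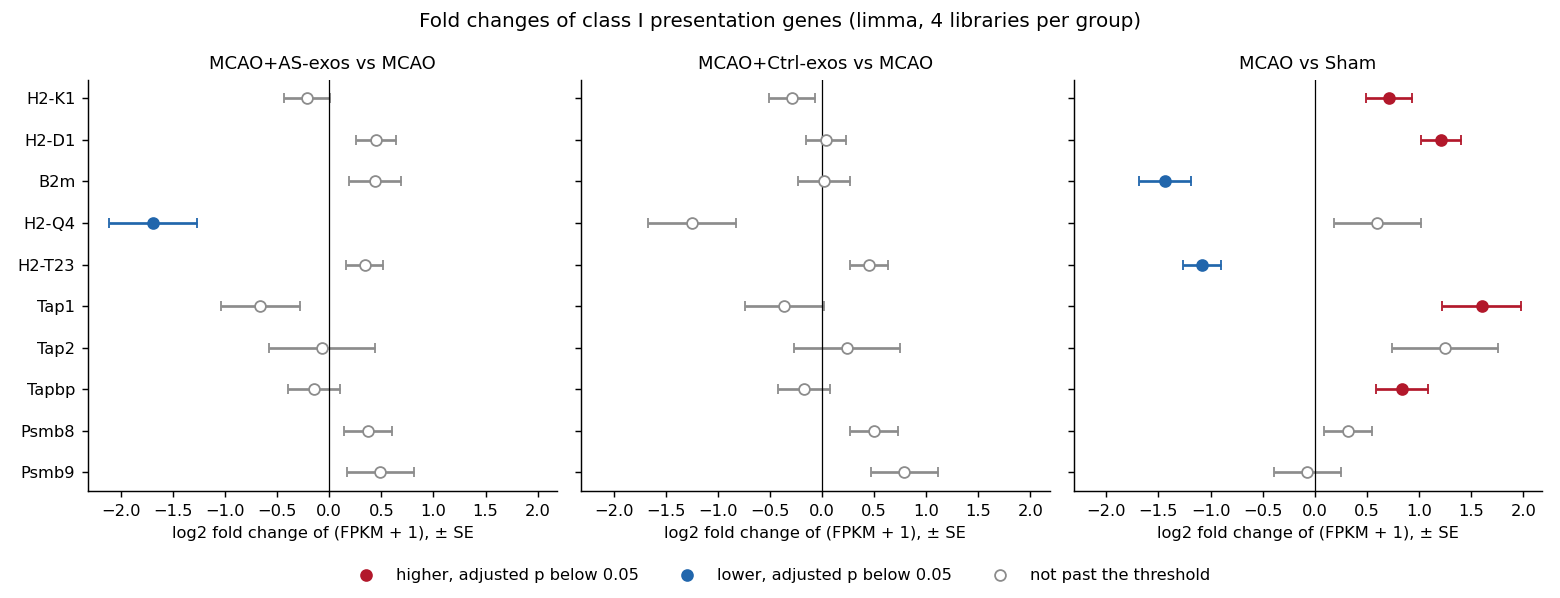
Log2 fold changes of (FPKM + 1) with SE (x axis) for the 10 class I presentation genes in MCAO+AS-exos against MCAO, MCAO+Ctrl-exos against MCAO, and MCAO against Sham (limma, 4 libraries per group); filled points passed an adjusted p of 0.05. The stroke panel has 4 filled points on the right and 2 on the left, and the exosome panels have 1 filled point, H2-Q4 at -1.69.

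Ratios of 2 genes within a library do not depend on the scaling of that library. They do keep any trend with GC content, and H2-D1 and B2m lie at GC percentiles 63.9 and 6.01 of the tested genes. The part of such a trend in their ratio was not tested. The ratio of H2-D1 to B2m was 0.212, 0.177, 0.147 and 0.189 in MCAO libraries, against 0.0222, 0.0251, 0.0239 and 0.0507 in Sham libraries. The groups were far apart, by 2.65 on the log2 scale, and the same ratio was at 0.115 to 0.227 in MCAO+AS-exos and at 0.138 to 0.308 in MCAO+Ctrl-exos libraries. The exact permutation test (two-sided) of 4 against 4 libraries gave p = 0.0286, the smallest it can give, and 0.0735 after adjustment over the 54 ratio tests, of which none passed. The ratio of H2-T23 to H2-K1 was 0.16 to 0.233 in MCAO libraries and 0.507 to 0.793 in Sham libraries, again without overlap.

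Psmb8, Psmb9 and Psmb10 were set against Psmb5, Psmb6 and Psmb7, the constitutive subunits they replace. Psmb8 relative to Psmb5 was at 0.719, 0.952, 0.795 and 0.545 in MCAO libraries, against 1.38, 0.991, 1.1 and 1.22 in Sham libraries, so every MCAO library was below every Sham library (log2 difference -0.66, exact permutation p = 0.0286, adjusted p = 0.0735). Psmb10 relative to Psmb7 was at 0.393, 0.212, 0.335 and 0.346 in MCAO libraries, against 0.43, 0.53, 0.722 and 0.837 in Sham libraries, likewise without overlap (log2 difference -0.96, exact permutation p = 0.0286, adjusted p = 0.0735). Psmb9 relative to Psmb6 overlapped between the groups (log2 difference -0.74, exact permutation p = 0.171). Psmb10 itself, the remaining inducible catalytic subunit, was lower at 74.6 ± 9.88 FPKM in MCAO, against 147 ± 32.4 FPKM in Sham libraries (log2 fold change -0.95 ± 0.27, limma adjusted p = 0.00954). Psmb5 was higher at 321 ± 39.2 FPKM in MCAO, against 167 ± 46 FPKM in Sham libraries (0.97 ± 0.23, adjusted p = 0.0024), as was Psmb6 at 435 ± 38.2 FPKM in MCAO, against 274 ± 34.4 FPKM in Sham libraries (0.67 ± 0.21, adjusted p = 0.0147). Of the 5 constitutive counterparts and activators listed, 4 rose, among them the activator Psme3 (2.25 ± 0.47), and Psmb7 gave 0.01 ± 0.18. Among 4 further interferon-inducible proteasome genes, Psmb10 alone passed. Over all tested genes, 24.5% were higher and 14.8% lower in MCAO than in Sham libraries.

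**Figure D4:**
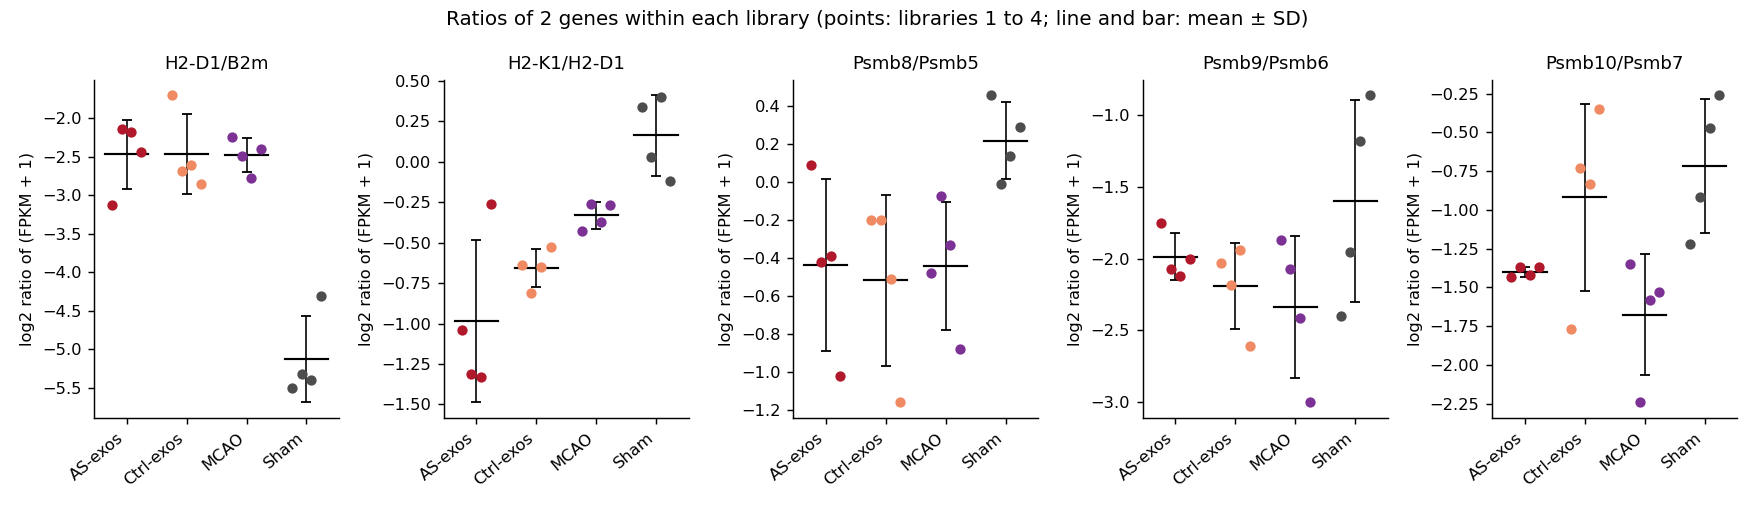
Log2 ratios of (FPKM + 1) of 2 genes within each library (y axis) for 5 pairs, with groups from left to right MCAO+AS-exos, MCAO+Ctrl-exos, MCAO and Sham; points are libraries 1 to 4, lines are means and bars are SD. For H2-D1 to B2m the 4 Sham libraries lie below all others, and for Psmb8 to Psmb5 they lie above the 4 libraries of the MCAO group.

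Other genes listed for the route changed in both directions in MCAO against Sham, where 24.5% of all tested genes were higher and 14.8% lower. The counts for these lists were not tested against those shares. Of 11 tested class I chains outside the 10, 2 rose and none fell: H2-Q10 averaged 12.8 FPKM in MCAO and 0.17 FPKM in Sham libraries (log2 fold change 3.49 ± 0.51), and H2-T22 averaged 23.6 FPKM in MCAO and 5.2 FPKM in Sham libraries, with overlap (2.08 ± 0.42). Of 12 tested genes listed for loading and trimming, 4 rose, among them the peptidase Nrd1 (3.22-fold) and the disulphide isomerase P4hb (2.3-fold). The 2 that fell were the membrane protease Sppl2a (-0.86 ± 0.24), whose part in class I loading was not tested, and the chaperone Hspa5 (-0.51 ± 0.19). The loading chaperone Calr (0.33 ± 0.21) and the trimming peptidase Erap1 (-0.41 ± 0.34) did not pass. Of 20 regulators, 4 rose. Ciita, the class II transactivator, averaged 6.48 FPKM in MCAO and 0.02 FPKM in Sham libraries (2.87 ± 0.37). Nlrc5 was higher (1.66 ± 0.52, adjusted p = 0.0159), at 1.11 to 11.17 FPKM in MCAO and 0.01 to 3.95 FPKM in Sham libraries, with overlap. Irf1, an interferon-induced activator of class I genes, gave -0.68 ± 0.30 (adjusted p = 0.0814).

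Interferon receptors and targets were also split, beside the same shares of 24.5% higher and 14.8% lower over all tested genes. The type I receptor chain Ifnar1 rose (2.28 ± 0.30) and the interferon gamma receptor chain Ifngr1 fell (-1.73 ± 0.29), and of 7 tested receptors and kinases 3 rose and 1 fell. Of 15 tested interferon-inducible marker genes 6 rose, among them Isg15 (3.71 ± 0.60) and Ifitm3 (3.88 ± 0.51), and 2 fell, the GTPase Igtp (-1.71 ± 0.54) and the chemokine Cxcl10 (-3.72 ± 1.02). Several class II genes changed as well: H2-Aa averaged 1852 FPKM in MCAO and 1.91 FPKM in Sham libraries (9.30 ± 0.30), and Cd74 averaged 1302 FPKM in MCAO and 20.8 FPKM in Sham libraries (5.97 ± 0.40), with 4 of 6 class II genes higher and H2-DMa lower (-1.18 ± 0.26). Of 6 myeloid receptors, several of which bind class I molecules, 4 rose, among them Pirb (3.19 ± 0.24) and Lilrb4a (8.51 ± 0.29).

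The exosome groups addressed whether plasma exosomes change this pattern. Against MCAO alone, MCAO+Ctrl-exos gave 0 of 10 calls (limma, lowest adjusted p = 0.285), where 0.0738% of all genes passed, 0.0461% higher and 0.0277% lower; 4 of the 10 and 1181 of all genes had an unadjusted p below 0.05. The median log2 fold change was 0.03 over the 10 genes and -0.14 over all. Groups did not overlap for 2 of the 10, against 5.98% of all genes. H2-T23 read 168.35, 177.88, 181.03 and 175.93 FPKM in MCAO+Ctrl-exos libraries, all above the highest MCAO library at 138.89 FPKM (log2 fold change 0.45 ± 0.18, adjusted p = 0.359). Psmb8 read 294.61, 408.48, 353.29 and 292.1 FPKM in MCAO+Ctrl-exos libraries, above the highest MCAO library at 281.14 FPKM (0.50 ± 0.23, adjusted p = 0.436).

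The proteasome subunits had higher means in MCAO+Ctrl-exos than in MCAO libraries without passing. Psmb9 averaged 149 ± 22.7 FPKM in MCAO+Ctrl-exos and 88.2 ± 28.2 FPKM in MCAO libraries (log2 fold change 0.79 ± 0.32, adjusted p = 0.371), with MCAO+Ctrl-exos replicate 1 inside the MCAO range. Psmb10 averaged 187 ± 76.5 FPKM in MCAO+Ctrl-exos and 74.6 ± 9.88 FPKM in MCAO libraries, without overlap (1.22 ± 0.27, adjusted p = 0.114). The constitutive subunits Psmb5 (0.58 ± 0.23, adjusted p = 0.36) and Psmb6 (0.64 ± 0.21, adjusted p = 0.26) did not pass either. H2-Q4 averaged 2.38 ± 1.25 FPKM in MCAO+Ctrl-exos and 7.56 ± 4.95 FPKM in MCAO libraries (-1.25 ± 0.42, adjusted p = 0.285).

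Between the exosome groups, MCAO+AS-exos against MCAO+Ctrl-exos, again 0 of 10 genes passed (limma, lowest adjusted p = 0.231), where 0.286% of all genes passed, 0.157% higher and 0.129% lower. At an unadjusted p below 0.05 were 1 of the 10 and 2127 of all genes, and medians were -0.13 over the 10 and -0.08 over all. The 1 gene was H2-D1, which read 1066.36, 1289.7, 1290.95 and 1082.94 FPKM in MCAO+AS-exos libraries, against 1051.82, 826.59, 1028.62 and 685.48 FPKM in MCAO+Ctrl-exos libraries. The ranges touched closely without overlap, as they did for 10.2% of all genes (log2 fold change 0.41 ± 0.19, adjusted p = 0.231). B2m read 9255.47, 5689.02, 5872.21 and 5872.71 FPKM in MCAO+AS-exos libraries, against 3421.17, 5306.83, 6270.68 and 4956.68 FPKM in MCAO+Ctrl-exos libraries. Replicate 1 of MCAO+AS-exos alone exceeded the other group (0.42 ± 0.25, adjusted p = 0.361).

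The remaining genes overlapped between the exosome groups. H2-K1 read 518.64, 520.39, 511.19 and 904.87 FPKM in MCAO+AS-exos libraries, against 675.68, 469.92, 654.94 and 473.29 FPKM in MCAO+Ctrl-exos libraries. Replicate 4 of MCAO+AS-exos was the highest of all 16 libraries for H2-K1, and the other 3 lay within 10 FPKM of each other. Tap1 read 11.25, 8.05, 10.25 and 31.28 FPKM in MCAO+AS-exos libraries, against 15.57, 19.27, 22.16 and 10.86 FPKM in MCAO+Ctrl-exos libraries, and its replicate 4 was likewise the highest of all. With library quality weights, under which 3266 of all 10846 genes passed against 31 without them, H2-D1 passed as higher (0.50, adjusted p = 0.0127) and Tap1 as lower (-0.75, adjusted p = 0.0438) in MCAO+AS-exos than in MCAO+Ctrl-exos. Psmb8 (-0.14 ± 0.23), Psmb9 (-0.30 ± 0.32), Tap2 (-0.31 ± 0.51), Tapbp (0.02 ± 0.25), H2-T23 (-0.11 ± 0.18) and H2-Q4 (-0.44 ± 0.42) differed by no more than about their errors.

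Against MCAO alone, H2-Q4 was the 1 gene of 10 that passed in MCAO+AS-exos. It read 1.25, 1, 1.51 and 1.71 FPKM in MCAO+AS-exos libraries, against 14.41, 7.83, 3.22 and 4.78 FPKM in MCAO libraries. Every MCAO+AS-exos library was below every MCAO library (log2 fold change -1.69 ± 0.42, adjusted p = 0.0325, limma), where 6.14% of all genes passed, 1.06% higher and 5.08% lower. These are low values, near the 1 FPKM filter, for a gene that shares stretches with its relatives. The call was lost when MCAO replicate 1, 2 or 4 or MCAO+AS-exos replicate 1, 2 or 3 was left out, with values of -2.19 to -1.35 and adjusted p up to 0.13 over all alternatives. Quantile normalization changed the split over all genes to 96 higher and 222 lower, against 115 and 551 as deposited.

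Groups did not overlap for 3 of the 10 genes in MCAO+AS-exos against MCAO, and for 14.4% of all genes. Besides H2-Q4 these were H2-D1 (1182 ± 125 FPKM in MCAO+AS-exos against 872 ± 145 FPKM in MCAO, 0.45 ± 0.19, adjusted p = 0.136) and H2-T23 (163 ± 9.71 FPKM in MCAO+AS-exos against 128 ± 8.76 FPKM in MCAO, 0.34 ± 0.18, adjusted p = 0.236). Tap1 averaged 15.2 ± 10.8 FPKM in MCAO+AS-exos and 21.7 ± 4.63 FPKM in MCAO libraries (-0.66 ± 0.38, adjusted p = 0.285). Without MCAO+AS-exos replicate 4 it was lower at -1.06 with an adjusted p of 0.0351, as H2-Q4 still was. The monocyte markers of that library were the lowest of its group, and their part in these differences was not tested. With quality weights 6 of the 10 passed, H2-D1, H2-T23 and Psmb8 higher and H2-K1, H2-Q4 and Tap1 lower, in a setting where 3955 of all 10846 genes passed, against 666 without weights.

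Replicate 4 of MCAO+AS-exos also stood apart in the balance of the 2 classical heavy chains. The ratio of H2-K1 to H2-D1 was 0.487, 0.404, 0.396 and 0.836 in MCAO+AS-exos, 0.643, 0.569, 0.637 and 0.691 in MCAO+Ctrl-exos, 0.743, 0.836, 0.774 and 0.829 in MCAO and 1.26, 1.02, 1.32 and 0.922 in Sham libraries. Replicates 1 to 3 of MCAO+AS-exos had the lowest ratios of all libraries, and replicate 4 was at the top of the MCAO range. MCAO+AS-exos differed from MCAO by -0.65 on the log2 scale (exact permutation p = 0.143, adjusted p = 0.266). MCAO+Ctrl-exos differed from MCAO by -0.33 without overlap (exact permutation p = 0.0286, adjusted p = 0.0735). The ratio of Psmb10 to Psmb7 was even in MCAO+AS-exos libraries, at 0.37 to 0.388, and wide in MCAO+Ctrl-exos libraries, at 0.294 to 0.784.

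Few other genes of the route passed in the exosome comparisons. Over all genes, 6.14% passed in MCAO+AS-exos against MCAO, 0.286% in MCAO+AS-exos against MCAO+Ctrl-exos and 0.0738% in MCAO+Ctrl-exos against MCAO. In MCAO+AS-exos against MCAO, the class I chain H2-T24 was lower (3.75 FPKM in MCAO+AS-exos against 15.8 FPKM in MCAO, -1.52 ± 0.44, adjusted p = 0.0483), and Ifngr1 (1.06 ± 0.29, adjusted p = 0.0403), Pirb (0.86 ± 0.24, adjusted p = 0.0411) and H2-DMa (2.01-fold, adjusted p = 0.0349) were higher. H2-T24 rested partly on MCAO replicate 4, at 37.26 FPKM against 6.57 to 10.41 FPKM in the other MCAO libraries. In MCAO+AS-exos against MCAO+Ctrl-exos, the endoplasmic reticulum chaperone Hspa5 was lower (323 FPKM in MCAO+AS-exos against 631 FPKM in MCAO+Ctrl-exos, -0.96 ± 0.19, adjusted p = 0.034). None of the listed genes passed in MCAO+Ctrl-exos against MCAO. None of the 20 regulators passed in any comparison among the MCAO groups; Nlrc5 was at 1.83 to 2.86 FPKM in MCAO+AS-exos and 3.84 to 5.86 FPKM in MCAO+Ctrl-exos libraries, without overlap (-0.83 ± 0.52, adjusted p = 0.385).

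The exosome groups were also set against Sham, the same 4 libraries as above. In MCAO+AS-exos 3 of the 10 genes were higher and 3 lower, where 39.8% of all genes passed, 20.7% higher and 19.1% lower; 3 of the 10 did not overlap with Sham, against 36.5% of all genes. H2-D1 (1.66 ± 0.19, adjusted p = 7.04e-07), Tapbp (0.69 ± 0.25, adjusted p = 0.0321) and Psmb8 (0.68 ± 0.23, adjusted p = 0.0237) were higher, and B2m (2-fold, adjusted p = 0.00396), H2-Q4 (-1.09 ± 0.42, adjusted p = 0.0438) and H2-T23 (-0.74 ± 0.18, adjusted p = 0.00288) were lower. Not past the threshold in MCAO+AS-exos were H2-K1 (0.51 ± 0.22, limma adjusted p = 0.0774), Tap1 (0.94 ± 0.38, adjusted p = 0.0587), Tap2 (1.18 ± 0.51, adjusted p = 0.074) and Psmb9 (0.42 ± 0.32, adjusted p = 0.317). B2m in MCAO+AS-exos replicate 1 was above Sham replicate 4. Without length and GC trends the fall of B2m in MCAO+AS-exos was -0.53 with an adjusted p of 0.053. In MCAO+Ctrl-exos 5 were higher and 2 lower, where 38.7% of all genes passed, 22.1% higher and 16.6% lower; 6 of the 10 did not overlap with Sham, against 33.5% of all genes. H2-D1 (1.24 ± 0.19), Tap1 (1.24 ± 0.38), Tap2 (1.49 ± 0.51, adjusted p = 0.0269), Tapbp (0.66 ± 0.25) and Psmb8 (0.82 ± 0.23, adjusted p = 0.00787) were higher, and B2m (-1.42 ± 0.25) and H2-T23 (-0.62 ± 0.18) lower. Not past the threshold in MCAO+Ctrl-exos were H2-K1 (0.42 ± 0.22, limma adjusted p = 0.143), Psmb9 (0.72 ± 0.32, adjusted p = 0.0846) and H2-Q4 (-0.65 ± 0.42, adjusted p = 0.232). The rise of Tap2 in MCAO+Ctrl-exos was 0.87 with an adjusted p of 0.109 without Sham replicate 1, where Tap2 was at 0.46 FPKM. With length and GC trends removed, Tap2 (0.52, adjusted p = 0.428) and Tapbp (0.10, adjusted p = 0.749) lost their calls in MCAO+Ctrl-exos, and Tapbp (0.29, adjusted p = 0.318) and Psmb8 (0.26, adjusted p = 0.332) in MCAO+AS-exos. The lengths used for Tap2 (378 bases) and Tapbp (649 bases) were far below those of their longest protein-coding transcripts (3442 and 2898 bases). The part of these lengths in the lost calls was not tested. The call of Tapbp in MCAO+Ctrl-exos was kept in 9 of 19 alternatives. With quantile normalization Tapbp and Psmb8 lost their calls in MCAO+AS-exos (0.47 and 0.35) and in MCAO+Ctrl-exos (0.52 and 0.49). Without Sham replicate 1, Tapbp and Psmb8 likewise lost their calls in MCAO+AS-exos (0.52 and 0.57), as did H2-Q4 (-1.07, adjusted p = 0.0773). Without both MCAO+AS-exos replicate 4 and MCAO+Ctrl-exos replicate 1, a choice made with earlier results known, Tap2 in MCAO+Ctrl-exos (1.49, adjusted p = 0.0505) and Tapbp in MCAO+AS-exos (0.67, adjusted p = 0.0504) no longer passed.

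Across the 16 libraries the 10 genes fell into no single pattern. Correlations of log2(FPKM + 1) are given as descriptions, since the points share groups and Sham libraries lie apart. H2-K1 and Tap1 (Pearson r = 0.79), Tap1 and Tapbp (0.79), Tap2 and Tapbp (0.77) and Psmb8 and Psmb9 (0.70) ran together. B2m ran with H2-T23 (0.74) and opposite to Tapbp (-0.75) and H2-D1 (-0.68), and Tap1 and Psmb9 with their shared promoter stretch had 0.34. Of all tested genes, the one most like H2-D1 was Litaf (r = 0.967 over 16 libraries), followed by Gm14548 (0.961) and Gpx3 (0.959). Most like B2m were Phf11d (0.934), Rmdn1 (0.925) and Kdelr2 (0.920), and most like H2-T23 were Clec5a (0.917), Liph (0.915) and Asb2 (0.913). Helz2 led for H2-K1 (0.884), Arap2 for H2-Q4 (0.901), Clta for Tap1 (0.935), Acot8 for Tap2 (0.912), Pgm2 for Tapbp (0.929), Grina for Psmb8 (0.888) and Rnasek for Psmb9 (0.864). No member was among the closest 3 genes of another.

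Cells that read class I molecules were not the target of the sort, which used CD45 and CD11b. Their markers in these libraries therefore cannot tell how many of them the cortex held. Of 15 T and NK cell markers 5 were in the table, summing to 37.7 to 64.4 FPKM in MCAO+AS-exos, 21.3 to 72.9 in MCAO+Ctrl-exos, 17.1 to 95.9 in MCAO and 16.9 to 52.1 FPKM in Sham libraries, with overlap between all groups. Most of that sum was Klrd1, which encodes the CD94 chain of the receptor for Qa-1, at 13.24 to 95.44 FPKM in MCAO and 16.05 to 50.27 FPKM in Sham libraries; Klrb1c was at 0 in every MCAO+AS-exos, MCAO and Sham library, and Cd4 in every Sham library.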

How the data were processed

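RNA of sorted CD45/CD11b-stained cells was amplified as cDNA, and libraries were built by tagmentation and circularized, per the labels' protocols. HISAT2, Bowtie2, RSEM 1.3.1 and build GRCm39.p6 are named in the submitters' processing notes, without their roles. The deposited values were read as FPKM, because RSEM is named and the totals of the libraries are unequal; whether they are TPM summed over fewer genes could not be settled. The 16 single-library files held the same values as the table of 13982 genes. Groups follow the sample titles.

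The 10846 genes that reached 1 FPKM in 4 or more libraries were tested as log2(FPKM + 1), a scale that understates changes of low genes, in 1 limma 3.58.1 model (R 4.3.3) of 4 group means over 16 libraries with eBayes (trend, robust), with Benjamini-Hochberg adjustment over all tested genes and a threshold of 0.05. The fit was tried on simulated data for MCAO against Sham, with 10846 genes. It recovered 21 of 100 genes changed by 1 on the log2 scale and 73 of 100 changed by 2, with 5 false calls. Only these genes were changed, whereas 4254 genes passed in the data. A gene that did not pass may therefore still have changed. Ratios were tested with exact permutation tests over all 70 arrangements of 4 against 4 libraries, written in Python 3.11.15. Other normalizations, filters, pseudocounts, weights, a replicate block and omission of each library were tried.

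The 10 genes, the lists and the tests were chosen with earlier results of these data known. Named are all 10 genes, up to 4 genes per pathway list with the smallest p in MCAO against Sham plus those that passed in an exosome comparison, marker levels and the 3 genes most like each of the 10. Calr, Erap1, Irf1, Psmb7, Igtp, Cxcl10, Klrd1, the Tap1/Psmb9 pair and the motif letters were added after their values or sequences were seen. The result of 1 listed regulator is not reported here.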

Additional observations from a re-analysis of the deposited data

Results flagged for a closer look

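In 5 of the 40 groups of 4 libraries (10 genes, 4 groups), 1 library stood apart from the other 3 by more than Dixon's 95% critical value for the gap over the range; chance gives this in about 5% of groups. H2-K1 and Tap1 were high in the same library, MCAO+AS-exos replicate 4. H2-K1 was at 904.87 FPKM there, against 511 to 520.4 FPKM in the other 3. Tap1 was at 31.28 FPKM there, against 8.05 to 11.25 FPKM.

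B2m was at 9255.47 FPKM in MCAO+AS-exos replicate 1, against 5689 to 5873 FPKM in the other 3 libraries of that group. Tapbp was at 128.86 FPKM in MCAO+Ctrl-exos replicate 3, against 81.28 to 89.02 FPKM. Psmb9 was low, at 115.27 FPKM, in MCAO+Ctrl-exos replicate 1, against 156 to 163 FPKM. The cause of these values was not tested.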

How the results depend on the processing

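Of 20 called results of single genes, 10 kept their call in every alternative, and no called value changed sign. The cause of the lost calls was not tested. For MCAO against Sham, 6 of the 10 genes passed and the count stayed within 1.5 times of this in every alternative; H2-D1, B2m, H2-T23 and Tap1 passed in each. The call of H2-K1 was lost without the mean-variance trend (adjusted p = 0.0507), under quantile normalization and with length and GC trends removed (0.43, adjusted p = 0.174), which also ended that of Tapbp.

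For MCAO+AS-exos against MCAO the count of 1 became 0 with a minimum of 5 FPKM (H2-Q4 not tested) or only the 8 libraries compared, 6 with quality weights, 2 without both MCAO+AS-exos replicate 4 and MCAO+Ctrl-exos replicate 1, and 0 to 2 with each library left out. For MCAO+AS-exos against MCAO+Ctrl-exos quality weights gave 2 instead of 0. Against Sham, at least 2-fold changes were 4 instead of 7 in MCAO+Ctrl-exos and 3 instead of 6 in MCAO+AS-exos, where length and GC removal gave 3 and leaving out each library 3 to 8.

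Over all genes, calls in MCAO+AS-exos against MCAO were 666, and 318 (quantile), 3955 (quality weights), 31 (8 libraries), 2024 without MCAO+AS-exos replicate 4, 2155 without both and 0 without replicate 2 or 3. In MCAO+AS-exos against MCAO+Ctrl-exos they were 31, and 16 (no trend), 88 (quantile), 93 (5 FPKM), 3266 (quality weights), 9 (8 libraries), 123 (length and GC), 1 to 1297 with a library left out and 1088 without both. In MCAO+Ctrl-exos against MCAO they were 8, and 2 to 5 (no trend, scaled totals, no filter, 8 libraries, length and GC), 59 (quality weights), 2 to 89 with a library left out and 168 without both.

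Equal replicate numbers did not pair the libraries (correlations of deviations -0.148 to 0.0923). With the replicate block the counts for the 10 genes stayed at 6, 0, 0, 1, 7 and 6, and over all genes 68 passed in MCAO+AS-exos against MCAO+Ctrl-exos, 460 in MCAO+AS-exos against MCAO and 5 in MCAO+Ctrl-exos against MCAO. None of the within-library FPKM ratios passed under any alternative (lowest adjusted p = 0.0671). Unknown depth limits what can be said of H2-Q4, Tap1 and Tap2.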
